A study of Mus musculus with 6 samples.

Results

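The 10 transcription regulators of the Schwann cell lineage followed here in the auditory nerve of Vcan knockout mice were Sox10, Egr2, Nab1, Nab2, Yy1, Pou3f1, Pou3f2, Zeb2, Sox2 and Tfap2a. They were chosen by gene symbol, and all 10 were found among the 24062 symbols counted by RNA sequencing. The Vcan knockout group (3 mice) and the wildtype group (3 mice) were both young adults of the C57BL/6 strain by their labels, and the series design gives C57BL/6J for wildtype. Each library came from 1 mouse, with its left and right nerves pooled. Which stretch of Vcan was removed, in which cells and from which age is not stated in the labels. Versican is a chondroitin sulfate proteoglycan of the extracellular matrix, and the study set nerves labelled Vcan knockout beside wildtype nerves.

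Schwann cells of peripheral nerve pass from precursors through an immature stage to a promyelinating and then a myelinating state, and each step rests on transcription factors. Sox10, an HMG-box factor, is needed from the first specification of these cells onward and acts with POU factors such as Pou3f1 (Oct6) to switch on Egr2 (Krox20). Egr2 then activates myelin genes together with Sox10, with Nab1 and Nab2 as its corepressors, while Sox2 and Tfap2a are known as brakes that belong to the earlier stages. Part of the auditory nerve near the brainstem is wrapped by oligodendrocytes, which also use Sox10 and Zeb2.

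The promoters shown belong to the regulator whose values did not overlap between the genotypes (Egr2), to a partner of Egr2 (Nab1) and to a myelin gene controlled in Schwann cells (Prx, which encodes periaxin). Each run is the 250 bases before the start site in RefSeq on GRCm38.p6, written 5′ to 3′ on the gene's strand. Capitals mark matches, on either strand, to the POU octamer ATGCAAAT, the EGR motif GCGNGGGCG or the CArG box, the site of serum response factor.
Egr2 (chr10:67537619-67537868, plus strand): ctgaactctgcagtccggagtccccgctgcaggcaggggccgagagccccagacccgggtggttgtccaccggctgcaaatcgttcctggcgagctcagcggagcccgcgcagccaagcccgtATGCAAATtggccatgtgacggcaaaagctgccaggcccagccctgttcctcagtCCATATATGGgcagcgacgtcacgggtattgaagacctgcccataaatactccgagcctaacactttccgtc
Nab1 (chr1:52500449-52500698, minus strand): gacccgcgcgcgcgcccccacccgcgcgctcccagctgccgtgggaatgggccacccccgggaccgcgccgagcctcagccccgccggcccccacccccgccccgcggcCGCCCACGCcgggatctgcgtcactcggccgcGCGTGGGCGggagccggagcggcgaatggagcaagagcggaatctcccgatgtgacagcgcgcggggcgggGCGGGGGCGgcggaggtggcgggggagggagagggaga
Prx (chr7:27499074-27499323, plus strand): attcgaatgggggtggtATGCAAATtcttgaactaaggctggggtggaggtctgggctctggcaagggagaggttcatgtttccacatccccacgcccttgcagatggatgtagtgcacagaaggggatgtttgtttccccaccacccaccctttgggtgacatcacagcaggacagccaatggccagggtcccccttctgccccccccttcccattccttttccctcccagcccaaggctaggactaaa

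The Egr2 run held 1 octamer, 127 bases before the start, and 1 CArG box, 72 bases before it. The Nab1 run held 3 EGR matches, at 141, 109 and 38 bases, and the Prx run 1 octamer, at 233 bases. Of the 8 regulators searched, only Egr2 held the octamer and only Nab1 the EGR motif. Of the 13 myelin genes searched, 1 held the octamer, Prx itself, and 0 held the EGR motif. Over 32851 RefSeq promoter windows of this length, 1.601% held the octamer, 4.70% the EGR motif and 1.47% a CArG box. Among the 8 regulators with a promoter in the table, no run held the SOX motif AACAAT, the YY1 motif AAGATGGC or the ZEB motif CACCTG, which stood in 9.42%, 1.57% and 17.2% of all windows. These matches describe letters only, and binding was not measured.

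The 6 libraries held 74530860 to 92513887 gene counts. The nerve was well represented: Pmp22, a protein of peripheral myelin, was counted at 1448 to 1881 CPM (read counts per unit of library size, scaled by TMM), and Snap25, a neuronal release protein, at 1534 to 3502 CPM. Vcan itself was at 3.67 ± 1.54 CPM in knockout and 8.43 ± 1.15 CPM in wildtype nerve (SD, n = 3 each). Vcan counts thus remained in the libraries labelled knockout, at 0.435 times the wildtype level in the fit (95% interval 0.255 to 0.743). The groups did not overlap for Vcan, which passed correction in DESeq2 (adjusted p = 0.0334) and not in edgeR (adjusted p = 0.558). Wildtype replicate 3 stood apart: its log2 CPM values had correlations of 0.943 to 0.953 with those of the other libraries, which had 0.951 to 0.982 among themselves. The 15 melanocyte and stria vascularis markers, all detected in every library, summed to 4879 CPM there and to 295 to 1016 CPM in the other 5 libraries. Its 16 spiral ganglion neuron markers summed to 7420 CPM, against 12715 to 14190 CPM elsewhere. Its 14 Schwann cell markers, a list that holds Egr2, summed to 5303 CPM. That sum was also low in knockout replicate 1, at 5809 CPM, and was 7492 to 8226 CPM in the remaining libraries. In pieces of tissue like these, fewer cells of a type and less RNA per cell cannot be told apart.

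None of the 10 regulators was called among 16722 genes at an adjusted p of 0.05 (edgeR quasi-likelihood, Benjamini-Hochberg), where 0.138% of all genes were, 0.0658% as higher and 0.0718% as lower in knockout nerve. At an unadjusted p under 0.05, 1 of the 10 was counted, Egr2, which was higher in knockout nerve, against 5.2% of all genes in either direction and 2.56% as higher. That unadjusted call, and with it the interval above 0, was lost in edgeR in 5 of 15 alternatives. The unadjusted edgeR p-value of Egr2 became 0.0587 with a replicate block, 0.0987 without knockout replicate 3, and 0.0690, 0.0791 and 0.0873 without wildtype replicates 1, 2 and 3 in turn. DESeq2 called 0 of the 10 after adjustment, against 1.39% of all genes, and 1 before it, against 5.88%. The authors' deposited table likewise had 0 of the 10 after adjustment, against 1.34% of its genes, and 1 before it, against 5.49%. Of the 10, 8 had a log2 fold change above 0, beside 48.9% of all genes. That count depended on wildtype replicate 3, and was 5 of 10 without it. The median log2 fold change of the 10 was 0.23, against −0.01 over all genes tested, and 0.03 without wildtype replicate 3. Egr2 alone had no overlap between the groups, beside 10.3% of all genes, 5.42% with knockout and 4.93% with wildtype values on top. Without wildtype replicate 3, 4 of the 10 had no overlap: Egr2 with knockout values on top, and Nab1, Nab2 and Zeb2 with wildtype values on top, beside 1738 and 1783 of 16957 genes in those directions.

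**Figure D1:**
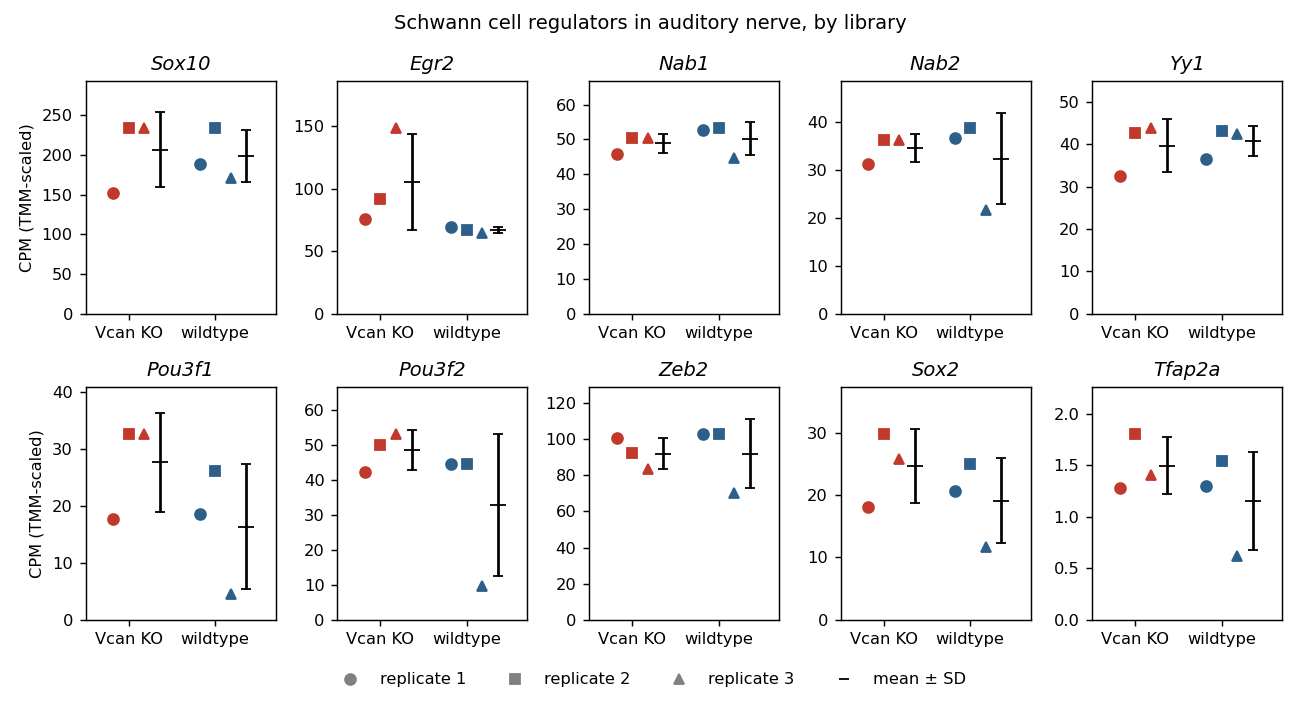
Level of each regulator in every library (vertical axes, TMM-scaled CPM from 0), with Vcan knockout in red on the left and wildtype in blue on the right of each panel, and the mean ± SD over 3 libraries in black. Egr2 separated the groups, from 76.1 to 149 CPM in knockout and 64.6 to 69.4 CPM in wildtype nerve, while wildtype replicate 3 (blue triangle) lay lowest for 8 of the 10, all but Sox10 and Yy1.

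Compared per length of transcript, the regulators kept a steady order at its ends. Sox10 was the highest of the 10 in every library, at 74.4 ± 16.9 FPKM (CPM per kilobase of the longest annotated transcript) in knockout and 71.3 ± 11.8 FPKM in wildtype nerve (SD, n = 3 each). Egr2 ranked next in every library, at 35.6 ± 12.9 FPKM in knockout and 22.6 ± 0.818 FPKM in wildtype nerve. Nab2 and Nab1, the paired corepressors, averaged 12.9 and 12.8 FPKM over the 6 libraries. Sox2 and Zeb2 averaged 10.6 and 10.1 FPKM, and these 4 neighbours traded places between libraries, over ranks 3 to 7. Zeb2 was at 4.62 FPKM when all annotated exons were used as its length, so its place in the order depends on that choice. Pou3f2, Yy1 and Pou3f1 followed at 7.29, 6.52 and 5.71 FPKM and also changed places. Tfap2a was the lowest in every library, at 0.429 ± 0.0795 FPKM in knockout and 0.331 ± 0.137 FPKM in wildtype nerve.

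Sox10 (gene identifier 20665, chromosome 15, 79154913 to 79164490, minus strand, GRCm38), the lineage factor of all Schwann cells, was at 153, 234 and 234 CPM in knockout libraries 1 to 3 and at 189, 235 and 171 CPM in wildtype libraries 1 to 3. The groups overlapped almost throughout, with the lowest of the 6 values in knockout replicate 1. The log2 fold change was 0.06 (SE 0.22), with a 95% interval of −0.46 to 0.58. It was −0.05 without knockout replicate 3 and −0.04 without knockout replicate 2 or wildtype replicate 3. As a fold change, the interval ran from 0.727 to 1.496 times the wildtype level, which includes no difference.

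Egr2 (13654, chromosome 10, 67534469 to 67542188, plus strand), the zinc finger activator of the myelin programme, was at 76.1, 91.7 and 149 CPM in knockout libraries 1 to 3, against 69.4, 67.1 and 64.6 CPM in wildtype libraries 1 to 3. All knockout libraries lay above all wildtype libraries, and the knockout values were spread far wider. The mean was 106 ± 38.4 CPM in knockout and 67.0 ± 2.43 CPM in wildtype nerve (SD, n = 3 each). On the log2 CPM scale the SD was 0.50 in knockout and 0.05 in wildtype nerve, against a median over all genes tested of 0.25 and 0.29. The fold change was 1.58 (95% interval 1.04 to 2.39; log2 fold change 0.66, SE 0.25), and it did not pass correction (edgeR, unadjusted p = 0.0361, adjusted p = 0.877). An exact permutation test over the 6 libraries gave p = 0.1, the smallest that 3 against 3 allows. In the authors' deposited table the unadjusted p was 0.0230 and the adjusted p 0.532. Knockout replicate 3 held much of the size: without it the log2 fold change was 0.32, and leaving out any other library gave 0.62 to 0.84.

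Egr2 is also an immediate early gene, switched on quickly by activity, injury or handling, and its close relative Egr1 was highest in the same library. Egr1 was at 18.4, 31.6 and 44.3 CPM in knockout libraries 1 to 3 and at 21.4, 21.1 and 15.3 CPM in wildtype libraries 1 to 3, with overlap (log2 fold change 0.71, SE 0.32; edgeR adjusted p = 1.00). Egr3, of the same family, was at 2.35, 3.01 and 4.58 CPM in knockout and 3.54, 2.88 and 1.94 CPM in wildtype libraries. Of 12 immediate early genes, a list added after the values of the 10 regulators were seen, 8 were higher and 4 lower in knockout nerve, and none passed in edgeR or DESeq2 or had an unadjusted p under 0.05 in edgeR. Their summed level ran from 185 to 299 CPM in knockout and 226 to 264 CPM in wildtype libraries, and was 277 CPM in knockout replicate 3. Of the list, 1 gene lay above all wildtype values and 1 below them, beside 5.42% and 4.93% of all genes, both named after their values were seen. Fosb, a partner of Jun proteins, was at 0.448, 0.466 and 0.720 CPM in knockout and 0.444, 0.245 and 0.339 CPM in wildtype libraries. Its lowest knockout and highest wildtype values were thus nearly level. The orphan nuclear receptor Nr4a1 was at 11.5 to 21.8 CPM in knockout and 22.1 to 28.8 CPM in wildtype nerve. Fos was at 5.51 to 10.7 CPM in knockout and 5.62 to 6.23 CPM in wildtype nerve. The part of rapid induction in the Egr2 values was not tested.

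**Figure D2:**
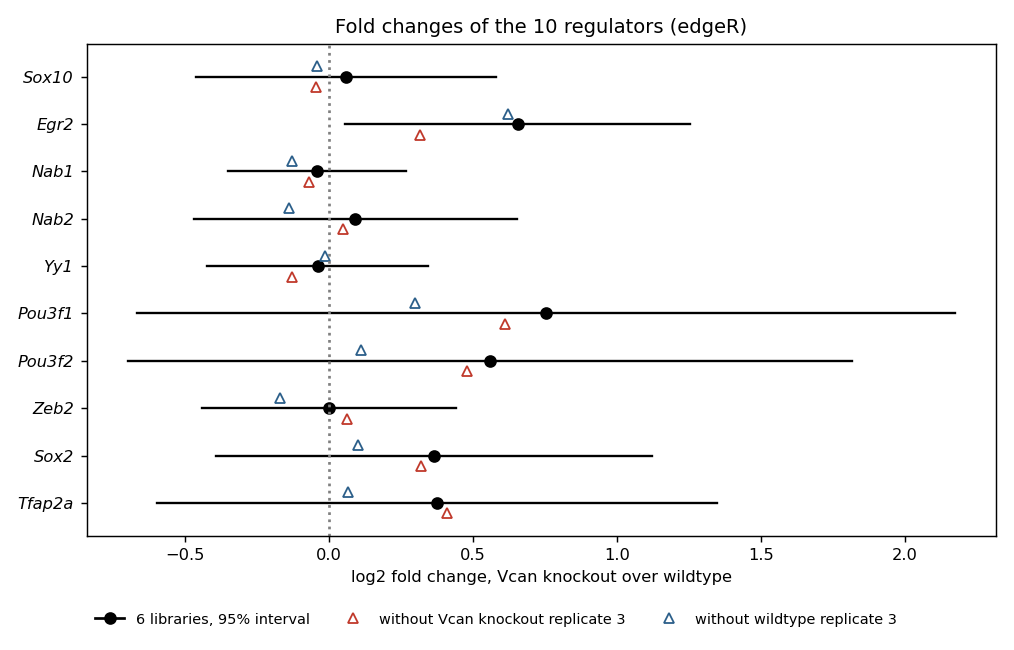
Log2 fold change of each regulator, Vcan knockout over wildtype (edgeR; black point with 95% interval), with the value without knockout replicate 3 (red triangle) and without wildtype replicate 3 (blue triangle). Only the Egr2 interval (0.06 to 1.26) lies above 0 among the 10, and Pou3f1 moves to 0.30 and Pou3f2 to 0.11 without wildtype replicate 3.

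The corepressors of Egr2 overlapped between the groups. Nab1 (17936, chromosome 1, 52455849 to 52500712, minus strand), whose promoter holds the 3 EGR matches shown above, was at 45.8, 50.5 and 50.3 CPM in knockout libraries and 52.7, 53.4 and 44.7 CPM in wildtype libraries. It had the smallest spread within groups of the 10 regulators (residual SD 0.12 on the log2 scale, against a median of 0.30 over all genes tested). Its log2 fold change was −0.04 (SE 0.13, 95% interval −0.35 to 0.27). Nab2 (17937, chromosome 10, 127660918 to 127666703, minus strand) was at 31.1, 36.2 and 36.1 CPM in knockout libraries and 36.7, 38.8 and 21.5 CPM in wildtype libraries (log2 fold change 0.09, SE 0.24). The low wildtype value was that of replicate 3, and without it the log2 fold change of Nab2 was −0.14 (SE 0.12). Nab2 overlaps Stat6, a signal-activated transcription factor at 75.4 to 78.9 CPM in knockout and 72.2 to 94.5 CPM in wildtype libraries, and how reads in the shared part were counted is not given, so the level of Nab2 is uncertain.

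Yy1 (22632, chromosome 12, 108792945 to 108820148, plus strand), a widely expressed zinc finger factor that acts on Egr2 in mouse Schwann cells, was at 32.6, 42.6 and 44.0 CPM in knockout libraries and 36.6, 43.2 and 42.5 CPM in wildtype libraries. The groups overlapped, and knockout replicate 1 was lowest, as for Sox10. The log2 fold change was −0.04 (SE 0.16, 95% interval −0.42 to 0.35).

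The POU factors of the promyelinating stage varied most among the 10. Pou3f1 (18991, chromosome 4, 124657646 to 124660655, plus strand) was at 17.6, 32.6 and 32.6 CPM in knockout libraries 1 to 3 and at 18.5, 26.1 and 4.47 CPM in wildtype libraries 1 to 3. Pou3f2 (Brn2; 18992, chromosome 4, 22482095 to 22488366, minus strand), which can stand in for Pou3f1 in mouse Schwann cells, was at 42.2, 50.1 and 53.3 CPM in knockout and 44.7, 44.6 and 9.55 CPM in wildtype libraries. For both genes wildtype replicate 3 lay far below the other 5 libraries, which were close together for Pou3f2. The highest wildtype value was 5.83 times the lowest for Pou3f1 and 4.68 times for Pou3f2, against 1.85 and 1.26 times within the knockout group. The log2 fold changes were 0.76 (SE 0.60) and 0.56 (SE 0.53), with intervals that included 0. Without wildtype replicate 3 they were 0.30 (SE 0.31) and 0.11 (SE 0.14).

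Zeb2 (24136, chromosome 2, 44983512 to 45117442, minus strand), which in mouse Schwann cells represses inhibitors of maturation such as Sox2 and Hey2, was at 101, 92.3 and 83.3 CPM in knockout libraries and 103, 103 and 70.0 CPM in wildtype libraries. The knockout values lay inside the wildtype range, and the log2 fold change was 0.00 (SE 0.18, 95% interval −0.44 to 0.44). Its antisense neighbour Zeb2os was low (0.526 to 1.68 CPM), and whether counting used strand is not given.

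The factors of earlier stages were also within the spread between animals. Sox2 (20674, chromosome 3, 34649995 to 34652461, plus strand), a brake on myelination that other glia and cochlear supporting cells also express, was at 18.1, 29.8 and 25.8 CPM in knockout libraries and 20.7, 24.9 and 11.6 CPM in wildtype libraries. Its log2 fold change was 0.37 (SE 0.32), and 0.10 (SE 0.23) without wildtype replicate 3. Sox2 lies inside Sox2ot, a long noncoding transcript at 15.5 to 19.3 CPM in knockout and 8.76 to 34.4 CPM in wildtype libraries, so reads from the shared part are uncertain. Tfap2a (21418, chromosome 13, 40713802 to 40738238, minus strand), the AP-2α factor of neural crest and Schwann cell precursors, was at 1.28, 1.81 and 1.40 CPM in knockout libraries and 1.296, 1.55 and 0.620 CPM in wildtype libraries, from 53 to 167 counts per library. The log2 fold change was 0.38 (SE 0.41), and 0.07 without wildtype replicate 3. Melanocytes, too, are known to express Tfap2a, and the melanin enzyme Dct was at 0.962, 206 and 4.92 CPM in knockout and 1.12, 36.8 and 1266 CPM in wildtype libraries. The part of melanocytes in the Tfap2a values was not tested.

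**Figure D3:**
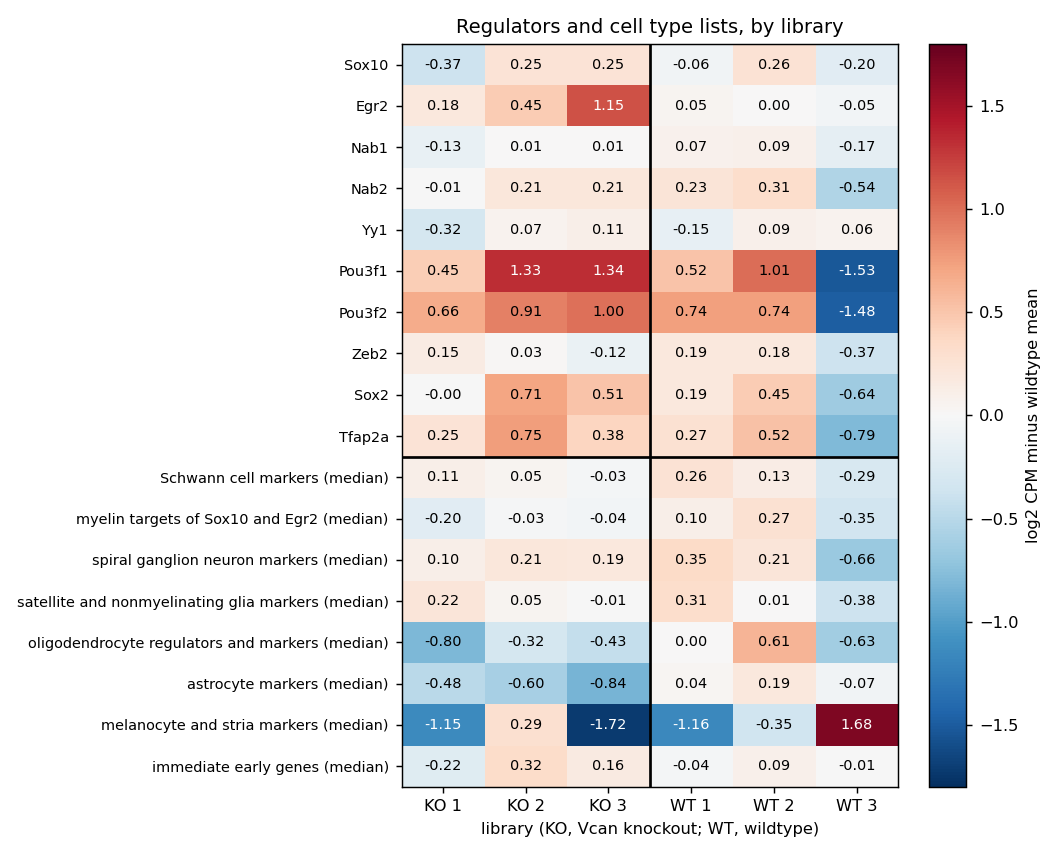
Log2 CPM of each regulator minus its wildtype mean (upper rows), and the median of the same measure over 8 gene lists (lower rows), in each library (columns, Vcan knockout left of wildtype; red above and blue below the wildtype mean). Wildtype replicate 3 was at −1.53 for Pou3f1, −1.48 for Pou3f2, −0.66 for neuron markers and 1.68 for melanocyte and stria markers, and Egr2 was at 1.15 in knockout replicate 3.

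The deviations of the regulators were next compared by library. Relative to the wildtype mean, wildtype replicate 3 was the lowest of the 6 libraries for 8 of the 10 regulators, with values between −0.05 for Egr2 and −1.53 for Pou3f1. Sox10 and Yy1 were instead lowest in knockout replicate 1, at −0.37 and −0.32, and there the median of the Schwann cell marker list was 0.11. Neuron markers were lowest in wildtype replicate 3 as well, and their part in the values of the 8 regulators was not tested. Among the 45 pairs of regulators, Sox2 and Tfap2a followed each other most closely, with a mean absolute difference of 0.108 between their centred log2 CPM values over the 6 libraries. Sox10 and Yy1 came next at 0.133.

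Among genes of at least 10 CPM, those with the pattern nearest to Sox10 by this measure were Jagn1 (0.0146), Gnpda2 (0.0175), Abhd17a (0.0188), Pdcd5 (0.0230) and Ywhaq (0.0231). Nearest to Egr2 were St3gal1 (0.103), Ccdc155 (0.107), Sgms2 (0.114), Zfp868 (0.119) and Zfp963 (0.121). Syt3, Metrnl, Rab3a, Mpped2 and Panx1 were nearest to Sox2, at 0.0597 to 0.0670. The gene nearest to Egr2 was thus farther from it than the gene nearest to Sox10 was from Sox10. These names describe the 6 libraries and were not tested.

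Ratios within a library do not depend on scaling, and 11 were computed, each with a 2-sided exact permutation test. Egr2 relative to Sox10 (log2 ratio of CPM) was −1.003, −1.35 and −0.65 in knockout libraries 1 to 3 and −1.44, −1.81 and −1.41 in wildtype libraries 1 to 3. The groups did not overlap, and the difference was 0.55 (exact permutation p = 0.1, adjusted p = 0.367 over the 11). Nab1 relative to Egr2 was −0.73, −0.86 and −1.57 in knockout and −0.40, −0.33 and −0.53 in wildtype libraries, again with no overlap (difference −0.63, exact permutation p = 0.1, adjusted p = 0.367). The Nab1 count per Egr2 count was thus smaller in each knockout library than in any wildtype library. The Nab1 levels themselves overlapped, through wildtype replicate 3 alone. Both of these ratios hold Egr2, whose own values did not overlap, so neither is a result separate from Egr2. How often ratios of other gene pairs do not overlap was not computed. The ratio of Nab2 to Egr2 overlapped (difference −0.46, exact permutation p = 0.3). Sox2 relative to Sox10 was −3.07, −2.97 and −3.18 in knockout and −3.19, −3.24 and −3.88 in wildtype libraries, without overlap but with knockout replicate 3 and wildtype replicate 1 nearly level (difference 0.36, and 0.14 without wildtype replicate 3). The remaining ratios overlapped, and none of the 11 could pass correction, since 0.1 is the smallest exact permutation p of this design.

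**Figure D4:**
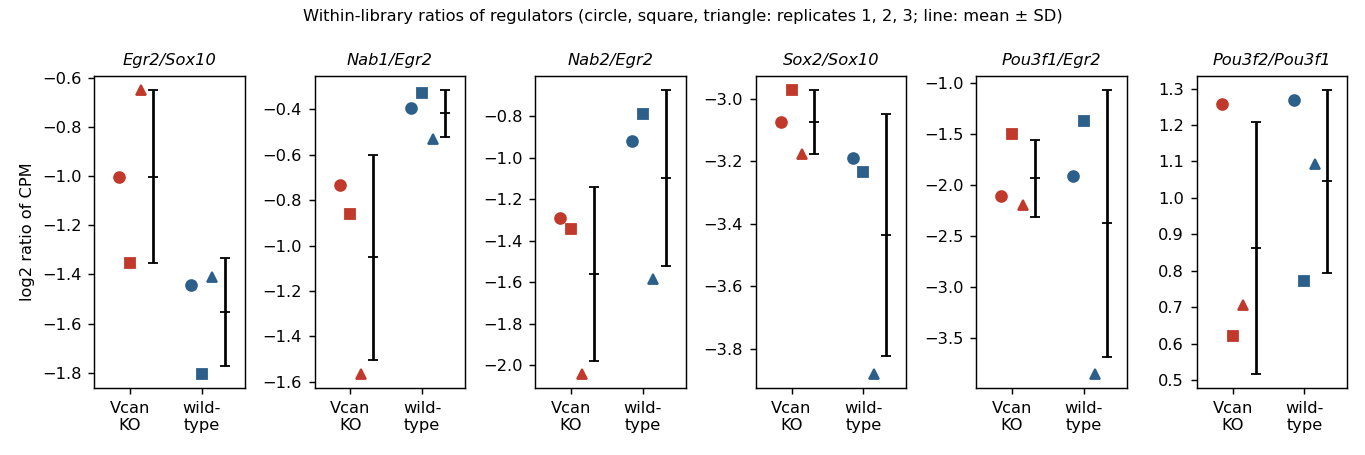
Log2 ratio of CPM between pairs of regulators within each library (vertical axes, which do not start at 0), Vcan knockout in red left of wildtype in blue, with mean ± SD over 3 libraries in black. Egr2/Sox10 was higher and Nab1/Egr2 lower in all knockout libraries, by 0.55 and −0.63 in the group means, while Pou3f1/Egr2 overlapped.

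The myelin genes that Sox10 and Egr2 control were more often lower than higher in knockout nerve. Of 26 listed and tested, 8 were higher and 18 lower, none passed in edgeR or DESeq2 and 1 had an unadjusted p under 0.05, with a median log2 fold change of −0.07 against −0.01 over all genes. Without wildtype replicate 3, 4 were higher and 22 lower, with a median of −0.21. Pmp22, a compact myelin protein, was at 1546 ± 88.5 CPM in knockout and 1691 ± 167 CPM in wildtype nerve (SD, n = 3 each). Mbp, which oligodendrocytes also make, had a log2 fold change of −0.26 (SE 0.31). Chosen after the values were seen, Gldn, which encodes the nodal protein gliomedin, was the only gene of the list above all wildtype values, at 195 to 222 CPM in knockout and 99.0 to 174 CPM in wildtype nerve. Ncmap, a noncompact myelin protein, lay below them, at 99.0 to 115 CPM in knockout and 128 to 138 CPM in wildtype nerve (log2 fold change −0.31, SE 0.12; edgeR adjusted p = 0.875).

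**Figure D5:**
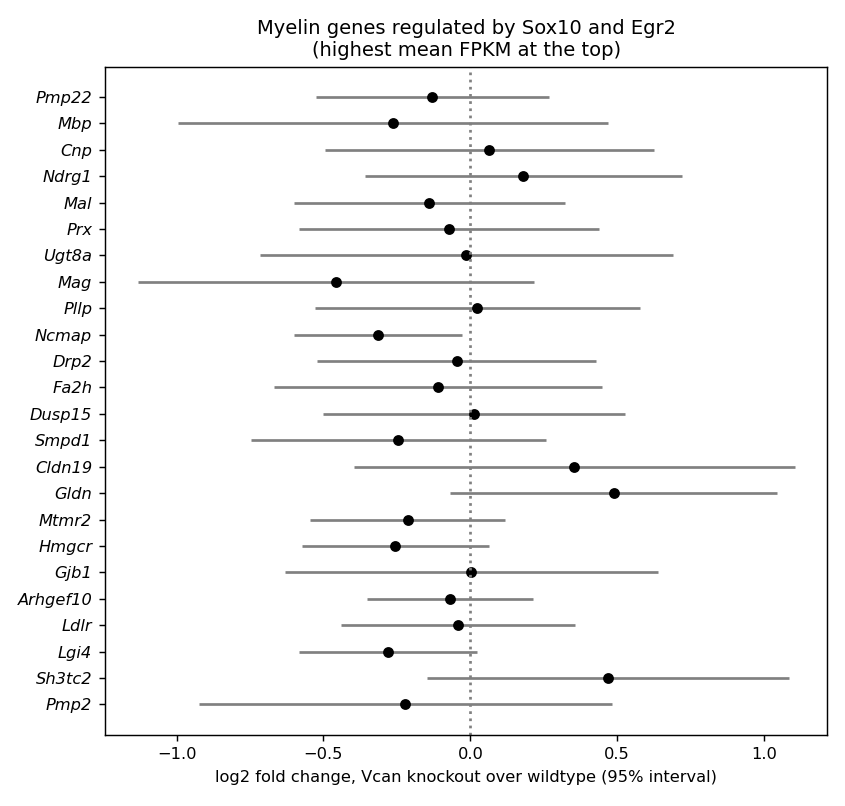
Log2 fold change, Vcan knockout over wildtype, of 24 of the 26 myelin genes controlled by Sox10 and Egr2, with 95% intervals (edgeR), ordered by mean FPKM with the highest at the top. Most points lie left of 0 (16 of 24), and none passed correction over all genes.

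Other regulators of the lineage were as scattered. Of 39 listed, 38 were tested, 18 were higher and 20 lower, and their log2 fold changes had a median of −0.06. None passed in edgeR or DESeq2, and 5 had an unadjusted p under 0.05 in edgeR, against 5.2% of all genes. The most abundant per length were the helix-loop-helix inhibitors Id3, Id2 and Id1 and the lipid regulator Srebf1. Id3 was at 181 ± 59.9 CPM in knockout and 145 ± 37.2 CPM in wildtype nerve, Srebf1 at 188 ± 9.44 CPM in knockout and 178 ± 58.1 CPM in wildtype nerve (SD, n = 3 each). Chosen after their values were seen, Hey2, a Notch effector that slows maturation, was at 58.1 to 70.5 CPM in knockout and 33.5 to 50.6 CPM in wildtype nerve. Id4, of the Id family, was at 18.04 to 27.2 CPM in knockout and 32.7 to 42.0 CPM in wildtype nerve, and the ETS factor Etv1 at 18.4 to 29.1 CPM in knockout and 30.8 to 55.1 CPM in wildtype nerve. Hey2, Id4 and Etv1 did not pass in edgeR (adjusted p = 0.694, 0.537 and 0.827). Runx2 and Rbpj, like Hey2, lay above all wildtype values. Of the 38, 3 lay above them and 2 below, beside 5.42% and 4.93% of all genes. Pax3 was lower with overlap (log2 fold change −1.84, SE 0.69, edgeR unadjusted p = 0.0334).

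Of 15 chromatin partners, among them the histone deacetylases and nucleosome remodellers that Sox10 and Zeb2 recruit, 5 were higher and 10 lower, and none passed in edgeR or DESeq2 (1 unadjusted p under 0.05 in edgeR, Hdac1). Without wildtype replicate 3 they were 8 and 7. Hdac2 was at 112 ± 23.2 CPM in knockout and 97.8 ± 17.6 CPM in wildtype nerve, and Hdac1 at 47.7 ± 11.5 CPM in knockout and 68.9 ± 10.4 CPM in wildtype nerve (SD, n = 3 each), with Ctbp1 and Hdac3 the most abundant per length. The remodeller Chd4 varied widely within both groups, at 281, 91.6 and 92.6 CPM in knockout and 230, 116 and 258 CPM in wildtype libraries 1 to 3.

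Of 13 lineage targets and receptors, a list that also holds Sox10, 7 were higher and 6 lower (4 higher and 9 lower without wildtype replicate 3). None passed in edgeR, while 1 passed in DESeq2. In edgeR 3 had an unadjusted p under 0.05, against 5.2% of all genes. They were Cnr1 and Cdh19, given below, and Gfra3, at a mean of only 0.277 CPM in knockout and 0.0722 CPM in wildtype nerve. S100b, a calcium-binding protein of Schwann cells that is also made elsewhere in the cochlea, was at 724 to 1941 CPM in knockout and 959 to 3837 CPM in wildtype nerve, highest in replicate 3. The neurotrophin receptor Ngfr, a marker of immature and nonmyelinating cells, was at 109 ± 25.0 CPM in knockout and 105 ± 34.9 CPM in wildtype nerve (SD, n = 3 each). Picked after their values were seen, Cnr1, a cannabinoid receptor, was at 82.1, 100.5 and 110.5 CPM in knockout and 57.7, 64.9 and 43.6 CPM in wildtype libraries (edgeR adjusted p = 0.388; DESeq2 adjusted p = 0.0346). The cadherin Cdh19 was at 22.2, 19.95 and 18.8 CPM in knockout and 32.8, 27.4 and 34.6 CPM in wildtype libraries (edgeR adjusted p = 0.381; DESeq2 adjusted p = 0.0540).

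Oligodendrocytes share Sox10 and Zeb2 with Schwann cells, and their list stood lower in knockout nerve. Sox10 and Zeb2 had log2 fold changes of 0.06 and 0.00 with all libraries. Without wildtype replicate 3 these were −0.04 and −0.17, beside a list median of −0.91. Of 18 oligodendrocyte genes, all detected in every library, 1 was higher and 17 lower, with a median log2 fold change of −0.65, and none passed in edgeR, where 6 had an unadjusted p under 0.05, while 2 passed in DESeq2. Their summed level was 727 to 988 CPM in knockout and 1083 to 1540 CPM in wildtype libraries. Cldn11 alone was at 402 CPM in wildtype replicate 3, where the sum was 1083 CPM. By the median log2 CPM of the list relative to the wildtype mean, the groups overlapped. That median was −0.80, −0.32 and −0.43 in knockout libraries 1 to 3 and 0.00, 0.61 and −0.63 in wildtype libraries 1 to 3. Astrocytes, which express Sox2, gave 15 of 15 lower (12 of 15 without wildtype replicate 3), none passing in edgeR (6 at an unadjusted p under 0.05) and 2 in DESeq2, with sums of 1225 to 1570 CPM in knockout and 1654 to 2137 CPM in wildtype libraries. Sox2 had a log2 fold change of the opposite sign, 0.37 (SE 0.32), and 0.10 (SE 0.23) without wildtype replicate 3. The part of these cells in the levels of the shared regulators was not tested.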

How the data were processed

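RNA of microdissected auditory nerve was sequenced from 6 mice. The submitters' processing notes name the build mm10, HTSeq and DESeq2, without versions. The deposited table holds raw counts per gene made by the authors, with their own mean of normalised counts (a signal), log2 fold change, test statistic (a score) and p-value, per the file headers; the last are used only where their table is named. Of 24067 rows, 5 symbols stood on 2 identical rows and were joined. Not given in the sources used here were the aligner, the strand setting and how ambiguous reads were treated.

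Genes were kept by filterByExpr, scaled by TMM (factors 0.964 to 1.02) and tested with robust quasi-likelihood F tests in edgeR 4.0.16 (R 4.3.3), 2-sided, knockout against wildtype, with no covariate. DESeq2 1.42.0 and limma 3.58.1 (voom) were alternatives. The SE was the size of the log2 fold change divided by the square root of F, and 95% intervals used the test's degrees of freedom. CPM values are TMM-scaled. FPKM used the longest GENCODE vM21 transcript. Ratios used a prior count of 0.5. No 2 libraries agreed within sampling noise (lowest chi-square per degree of freedom 41.4). At most 2.61% of the 50-base stretches of any regulator (Nab1) occurred at another locus. The fit was tested on simulated counts, with settings and outcome not reported here, so nothing about its error rate is drawn from that. Nothing says whether the mice of a group shared a litter or day, and p-values measure the spread between these mice.

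The members, the gene lists and the tests were chosen with earlier results of these data known. Named were the 10 regulators, any listed gene past the threshold and, where none passed, the 4 of highest FPKM in a pathway list and up to 3 in a cell type list; exceptions are stated. Some genes that this rule names, and the planned levels relative to a set of myelin genes, are not reported here. Promoters came from RefSeq, at the start nearest to a GENCODE principal transcript; the CArG box was added after the Egr2 sequence was seen.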

Additional observations from a re-analysis of the deposited data

How the results depend on the processing

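No regulator was called under any of the 15 alternatives run, which covered scaling, filters, tools, the replicate block and each library left out. The number of genes called over the whole table was 23 in the main edgeR test, 252 in DESeq2, 13 with a mean of at least 5 CPM, 3 with a replicate block, and 3 to 14 without 1 library. The fold changes of Egr2, Pou3f1, Pou3f2, Sox2 and Tfap2a kept their sign under all of these, with no value for Tfap2a at a mean of at least 5 CPM. Those near 0 turned when a library was left out, over −0.045 to 0.24 for Sox10, −0.13 to 0.01 for Nab1 (0.0061 at most), −0.14 to 0.24 for Nab2, −0.13 to 0.086 for Yy1 and −0.17 to 0.090 for Zeb2, which was also −0.0084 with no filter. Ratios that turned ran from −0.30 to 0.95 for Pou3f1/Egr2, −0.013 to 0.28 for Nab2/Nab1, −0.49 to 0.037 for Sox2/Egr2, −0.18 to 0.039 for Yy1/Sox10 and −0.30 to 0.15 for Zeb2/Sox10. The cause was not tested.

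Without wildtype replicate 3, an alternative chosen after seeing the data, genes with a positive fold change numbered 5 of the 10 regulators (8 with all libraries), 8 of 15 chromatin partners (5), 4 of 26 myelin genes (8) and 4 of 13 lineage targets (7).

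Replicate numbers follow the sample titles, while the column names number knockout replicates 2 and 3 as 3 and 4, so a shared number holds by title only. Libraries of the 2 groups with the same title number did not pair throughout. Their deviations from the group means correlated at 0.41, 0.19 and −0.15, and wildtype replicate 2 correlated best with knockout replicate 3 (0.34). In log2 CPM, knockout replicate 1 correlated at 0.972 with wildtype replicate 1 and at 0.958 with each other knockout library. Knockout replicates 2 and 3 correlated at 0.970 and 0.971 with wildtype replicate 2, and at 0.982 with each other. With the replicate number as a block the log2 fold change of Egr2 was 0.60 (edgeR adjusted p = 0.893). With 3 animals a group, the intervals given limit what could be seen.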
